A study of Homo sapiens with 6 samples.

Results

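Long intergenic noncoding RNAs with a LINC symbol were examined in U2OS 2-6-3 cells, and 163 of them formed the set described here. A gene was taken when its symbol was LINC followed by digits alone, when its RefSeq entry was a noncoding one (prefix NR_) on a primary chromosome, and when that entry had a mean signal of at least 20 in the authors' deposited table of mock against untransfected cells. The mean signal is the mean of the normalized read counts over the 4 libraries of a table. Of 1421 LINC genes with such an entry, 816 had at least 1 read in the 6 libraries, and the 163 members held 94.0% of the reads of all LINC genes. The whole series covered 26850 genes on primary chromosomes. Just above the minimum stood LINC01145, LINC02405 and LINC01623, with mean signals of 20.4, 20.8 and 20.9 in the authors' deposited table. Just below it stood LINC02175, LINC00672 and LINC00163, with 19.9, 19.7 and 19.6, and these were left out. The members were thus selected on a measured value, the level in mock and untransfected libraries, so every value for mock against untransfected cells is given below as a description, and nothing is read from it.

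Long intergenic noncoding RNAs are transcribed by RNA polymerase II from loci between coding genes, and most are capped, spliced and polyadenylated without coding for a protein. They tend to be expressed at lower levels and in fewer tissues than messenger RNAs. Many stay in the nucleus or are degraded there by the RNA exosome, and some act on chromatin, on neighbouring genes or by binding proteins, while the role of most is not known.

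U2OS 2-6-3 is a human osteosarcoma line, grown from 1 clone, that carries an array of tet operators and a reporter gene. The 6 RNA sequencing libraries fell into 3 groups of 2. Sample cells received plasmids for CIBN-TetR, for mCherry-MCP and for PHR-YFP-VP16, a light-switched system that brings the VP16 activator to the operators. Mock cells received TetR-RFP and YFP, and untransfected cells received no plasmid or transfection reagent. All 3 groups stood in white light overnight, so no group tests the dependence on light. Sample and mock cells both went through transfection with the same reagent, and the share of cells that took up plasmid was not given.

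Reads summed over entries were 50105854 and 9579278 in sample cells, 54177551 and 44594507 in mock cells, and 53596406 and 51146190 in untransfected cells. In the shallow sample library 1 read was worth 4.12 normalized counts, against 0.650 to 0.927 in the others, so low members are counted coarsely there. Members held 0.0597% and 0.0599% of reads in sample cells, 0.0601% and 0.0572% in mock cells, and 0.0701% and 0.0670% in untransfected cells. Between the libraries of a pair the log2 ratio of a member's counts had an SD of 0.714 in sample, 0.421 in mock and 0.314 in untransfected cells, wider than the 0.543, 0.278 and 0.221 of all genes with a mean signal of at least 20. No label states that the libraries of a group came from separate cultures, and every p-value reflects the variation between these samples alone, which is possibly technical. Of 9 osteoblast markers 7 or 8 had reads in each library, with summed normalized counts of 28321 to 36642 in sample, 27020.0 to 27973 in mock and 40353 to 41080.1 in untransfected libraries. Among them IBSP was at 0 in every library, SP7 had a read in 1 library, and COL1A1 and SPARC made up most of the sum. Of 8 markers of blood, epithelial and endothelial cells 6 or 7 had reads, summing to 6307 to 6999.8 in sample, 5758 to 6899 in mock and 7042 to 7704 in untransfected libraries. Nearly all of that was the keratin KRT8, and CD3E was at 0 throughout. Within the lists the bone enzyme gene ALPL averaged 597 ± 81.2 in sample, 816 ± 73.8 in mock and 62.8 ± 7.95 in untransfected cells (SD, n = 2), the epithelial EPCAM 58.9 ± 1.83, 65.7 ± 27.4 and 182 ± 11.6, and the globin HBB 82.5 ± 29.3, 7.53 ± 5.4 and 3.11 ± 1.65 in the same order of groups. For sample against mock cells 4 of the 8 markers of other cell types were tested, and 1 was called higher in the authors' deposited table. Over all genes 0.0654% were called in that comparison. The bone regulator RUNX2 had 93.1 and 132 in sample cells and 66.7 and 64.0 in mock cells, against 379 and 414 in untransfected cells. The parts of these markers and of depth in the results below were not tested.

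The level of members ranged from 20.4 to 3526 in mean signal in the authors' deposited table, with a median of 66.2. Between 20 and 50 lay 65 members, between 50 and 200 lay 61, and 37 had 200 or more. The 10 largest held 46.9% of all member reads. They were LINC00958, LINC03033, LINC00674, LINC00839, LINC00205, LINC00668, LINC02987, LINC00963, LINC00673 and LINC02210. Per kilobase of transcript, on the scale of normalized counts, LINC00958 averaged 2147 in sample cells, 2381 in mock cells and 986 in untransfected cells. LINC03033 followed with 1487, 1600.0 and 963 per kilobase in sample, mock and untransfected cells. LINC00668 averaged 575 per kilobase in sample, 562 in mock and 451 in untransfected cells. Thus LINC00958 stood above LINC03033 in the transfected groups, whereas in untransfected cells their levels per kilobase were close. Transcript lengths came from paired GENCODE entries, which 118 members had. Members lay on 22 autosomes and the X chromosome, most on chromosome 1 with 15 genes.

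Sample against untransfected cells asks which LINC genes differ once the light-switched plasmids are in the cells, and it holds the effect of transfection as well. Of 163 members 16 rose and 25 fell at an adjusted p under 0.05 in the authors' deposited table (DESeq2 test), together 25.2% of the members. Limma-voom on the recovered reads called 69 of them (42.3%), where it called 50.6% of all genes. Over all genes 37.3% were called, 20.2% as higher and 17.1% as lower, against 9.82% and 15.3% of members. The untransfected libraries that helped to choose the members are an arm of this comparison too, and a low gene could enter by being high in them. The counts and their balance of rises and falls are therefore given as a description. The median deposited log2 fold change of members was -0.07, and that of all genes with the same minimum level was 0.01. With a log2 fold change of at least 1 as well, 11 members (6.75%) rose and 18 (11.0%) fell, against 4.53% and 7.38% of all genes. The shares of all genes are over every gene tested, without the minimum level, and these counts too are a description. RNA came from whole cultures, so a change in every cell and a change in the transfected cells alone cannot be told apart. Deposited fold changes are shrunk toward 0, most for low members, so the ratio of group means is larger for these.

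The steepest rise by deposited log2 fold change was that of LINC02535, a gene at chr6:85387219-85404802 (hg38) that has been studied in cervical cancer. It had 146 and 124 normalized counts in sample cells, 138 and 134 in mock cells and 8.45 and 9.98 in untransfected cells in the 2 libraries of each group. The 4 transfected libraries all stood far above both untransfected ones, and sample and mock libraries overlapped. For sample against untransfected cells the authors' deposited table gave a log2 fold change of 3.13 (SE 0.39, adjusted p = 3.27e-14), and the group means were 14.6-fold apart. LINC00707 at chr10:6779598-6842906, a transcript studied in carcinomas and in bone-forming differentiation of stromal cells, had 55.5 and 90.6 normalized counts in sample cells, 82.3 and 66.8 in mock cells and 4.55 and 4.28 in untransfected cells. Its untransfected level rested on 7 and 6 reads, and its log2 fold change in the authors' deposited table was 2.70 (SE 0.46, adjusted p = 5.92e-08). The group means of LINC00707 were 16.6-fold apart, a larger ratio than that of LINC02535. LINC00941 at chr12:30795681-30802711, reported to promote epithelial-mesenchymal transition in tumour cells, had 191 and 218 normalized counts in sample cells, 185 and 188 in mock cells and 26.6 and 27.8 in untransfected cells. Its pairs were tight, and the authors' deposited table gave 2.56 (SE 0.32, adjusted p = 4.12e-14) on the log2 scale.

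A second tier of risers was smaller or lower in level. LINC01322 had 57.9 and 61.8 in sample cells and 72.3 and 84.4 in mock cells, against 11.0 and 14.3 in untransfected cells, and its log2 fold change for sample against untransfected cells was 1.63 (SE 0.45, adjusted p = 0.00128) in the authors' deposited table. LINC02551 had 77.5 and 90.6 in sample cells and 60.3 and 62.1 in mock cells, against 25.3 and 24.9 in untransfected cells, with 1.38 (SE 0.40, adjusted p = 0.00221) on the log2 scale in the authors' deposited table. LINC02910 had 26.6 and 20.6 in sample cells and 38.3 and 40.8 in mock cells, against 3.9 and 3.56 in untransfected cells, with 1.34 (SE 0.50, adjusted p = 0.0236) in the authors' deposited table. None of these 3 genes had overlapping transfected and untransfected libraries. LINC01783 had 74.3 and 107 in sample cells and 46.8 and 83.5 in mock cells, against 33.8 and 24.9 in untransfected cells, and the authors' deposited table gave 1.27 (SE 0.40, adjusted p = 0.0057). In limma-voom that call was lost when untransfected library b was left out, with a log2 fold change of 1.24. LINC01411 had 66.5 and 53.5 in sample cells and 43.3 and 56.6 in mock cells, against 19.5 and 21.4 in untransfected cells, with 1.20 (SE 0.43, adjusted p = 0.0184) in the authors' deposited table. LINC00601 rose by the smallest margin of those named here, with 1.10 (SE 0.46, adjusted p = 0.0448) in the authors' deposited table and group means of 48.8 ± 10.7 in sample and 16.8 ± 5.43 in untransfected cells (SD, n = 2). Without sample library a its limma-voom call was lost at a log2 fold change of 1.37. LINC02998 and LINC01204 had means of 29.7 ± 18.8 and 24.8 ± 5.91 in sample cells, against 8.79 ± 1.35 and 8.47 ± 0.889 in untransfected cells (SD, n = 2), and neither passed the test in the authors' deposited table (adjusted p = 0.0824 and 0.149).

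Abundant members rose by less but with smaller errors. LINC00958, on chromosome 11 and studied in bladder and other carcinomas, had 3558 and 3133 normalized counts in sample cells, 3662 and 3759 in mock cells and 1528 and 1544 in untransfected cells. Its libraries did not overlap between transfected and untransfected cells, and the authors' deposited table gave a log2 fold change of 1.11 (SE 0.12, adjusted p = 3.18e-18) for sample against untransfected cells. LINC00839 had 1349 and 1087 in sample cells and 1418 and 1224 in mock cells, against 719.9 and 656 in untransfected cells, with 0.82 (SE 0.16, adjusted p = 5.34e-06) in the authors' deposited table. LINC03033 had 1997 and 1906 in sample cells and 1963 and 2235 in mock cells, against 1253 and 1274 in untransfected cells, with 0.62 (SE 0.12, adjusted p = 4.07e-06) in the authors' deposited table. Group means differed by a ratio of 2.18 for LINC00958, 1.77 for LINC00839 and 1.54 for LINC03033. LINC00460, a transcript raised in several carcinomas, averaged 226 ± 12.7 in sample and 126 ± 3.78 in untransfected cells (SD, n = 2), with 0.77 (SE 0.26, adjusted p = 0.0113) in the authors' deposited table.

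**Figure D1:**
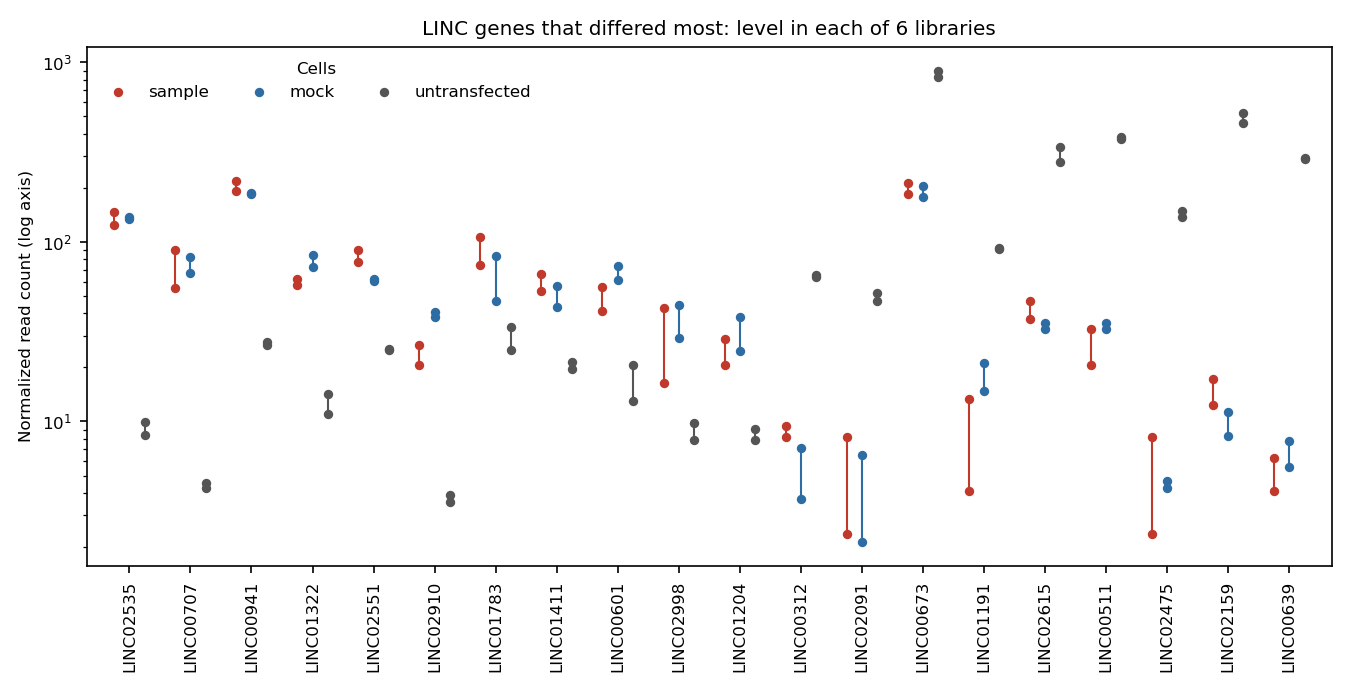
Normalized read counts (log axis) of the 20 LINC genes named for the highest or lowest called fold changes against untransfected cells, with 1 point per library and a line joining the 2 libraries of a group, for sample (red), mock (blue) and untransfected cells (grey). From LINC02535 to LINC01204 the untransfected points lie below the transfected ones, from LINC00312 to LINC00639 they lie above, and sample and mock points lie near each other.

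Among the members that fell, LINC00639 and LINC02159 went lowest. LINC00639 at chr14:38749339-38916882 had 6.26 and 4.12 normalized counts in sample cells, 7.8 and 5.56 in mock cells and 292 and 289 in untransfected cells. The sample libraries held 8 and 1 reads of it, so its level there is known only coarsely, and the authors' deposited table gave a log2 fold change of -4.42 (SE 0.38, adjusted p = 6.54e-29) for sample against untransfected cells. LINC02159 at chr5:160931778-160938626 had 17.2 and 12.4 normalized counts in sample cells, 11.3 and 8.35 in mock cells and 459 and 520.3 in untransfected cells. Its deposited log2 fold change was -4.31 (SE 0.32, adjusted p = 8.23e-40), again from the authors' deposited table. For both genes the untransfected libraries stood far above every transfected one, and sample and mock libraries lay close. LINC02475 at chr4:44016861-44022061 had 2.35 and 8.24 normalized counts in sample cells, 4.25 and 4.64 in mock cells and 137 and 149 in untransfected cells, which in sample cells came from 3 and 2 reads. It fell by 3.54 on the log2 scale in the authors' deposited table (SE 0.44, adjusted p = 2.42e-14).

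LINC00511 and LINC00673 are neighbours on chromosome 17, and both fell. LINC00511 at chr17:72598041-72640472, a transcript linked to growth of several tumours, had 32.9 and 20.6 normalized counts in sample cells, 32.6 and 35.2 in mock cells and 386 and 372 in untransfected cells. In sample cells its mean was 26.7 ± 8.68, against 379 ± 9.84 in untransfected cells (SD, n = 2), and the authors' deposited table gave -3.28 (SE 0.31, adjusted p = 6.25e-25) on the log2 scale. LINC00673 at chr17:72403322-72592804, reported in pancreatic cells to bind the phosphatase PTPN11, had 184 and 214 normalized counts in sample cells, 204 and 178 in mock cells and 833 and 899 in untransfected cells. The authors' deposited table gave it -2.07 (SE 0.19, adjusted p = 4.25e-25), a smaller fold with a smaller error. LINC02615 had 46.9 and 37.1 in sample cells and 32.6 and 35.2 in mock cells, against 339 and 279 in untransfected cells, with -2.52 (SE 0.31, adjusted p = 5.12e-15) in the authors' deposited table. LINC01191 had 13.3 and 4.12 in sample cells and 21.3 and 14.8 in mock cells, against 91.0 and 91.9 in untransfected cells, with -2.21 (SE 0.45, adjusted p = 6.05e-06), also from the authors' deposited table. No transfected library of these 4 genes reached the lower of its untransfected libraries.

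LINC02091 and LINC00312 fell from moderate levels. LINC02091 at chr17:183824-187251 had 2.35 and 8.24 in sample cells and 2.13 and 6.49 in mock cells, against 52.0 and 47.0 in untransfected cells, and its log2 fold change for sample against untransfected cells was -1.95 (SE 0.49, adjusted p = 0.000415) in the authors' deposited table. LINC00312, first described in nasopharyngeal carcinoma and placed at chr3:8571782-8574668, had 9.39 and 8.24 in sample cells and 7.09 and 3.71 in mock cells, against 65.6 and 64.1 in untransfected cells, with -1.92 (SE 0.46, adjusted p = 0.00018) in the authors' deposited table. Both were at 12 reads or fewer in each transfected library. LINC00662 and LINC02987, which overlap on opposite strands of chromosome 19, fell by 0.90 (adjusted p = 9.20e-05) and 0.61 (adjusted p = 0.000882) on the log2 scale in the authors' deposited table. LINC00963 fell by 0.50 in the authors' deposited table (adjusted p = 0.0176), and its limma-voom call was lost without sample library a, at -0.41.

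Several abundant or much-studied members did not pass the test. LINC00205, studied in liver cancer, had 989 and 959 normalized counts in sample cells, 989.9 and 864 in mock cells and 995 and 974 in untransfected cells. Its 3 groups overlapped, and the authors' deposited table gave a log2 fold change of -0.01 (SE 0.14, adjusted p = 0.956) for sample against untransfected cells. LINC00674 averaged 1595 ± 172 in sample and 1890.2 ± 129.8 in untransfected cells (SD, n = 2), with -0.25 (SE 0.14, adjusted p = 0.139) in the authors' deposited table. LINC00668 averaged 1005 ± 22.8 in sample and 788 ± 41.9 in untransfected cells (SD, n = 2), with 0.34 (SE 0.15, adjusted p = 0.0551) in the authors' deposited table. No call was made in the authors' deposited table for LINC01116 at 0.47, LINC00665 at 0.33, LINC00467 at -0.02 or LINC02210 at -0.36 on the log2 scale. Of the members just above the minimum level, LINC01145, LINC02405 and LINC01623 had 0.17, 0.19 and -0.68 in the authors' deposited table, and none was called there. Limma-voom did call LINC01116 (0.44, adjusted p = 0.0228) and LINC01623 (-1.11, adjusted p = 0.0312) for sample against untransfected cells. It did not call LINC00665, LINC00467, LINC01145 or LINC02405. By level in that comparison, 3 members rose and 4 fell of 65 below a mean signal of 50, 8 rose and 10 fell of 61 between 50 and 200, and 5 rose and 11 fell of 37 at 200 or more. The median SE at these 3 levels was 0.49, 0.37 and 0.25. Shares of all genes at the same levels were not counted, so nothing about LINC genes is read from these counts.

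**Figure D2:**
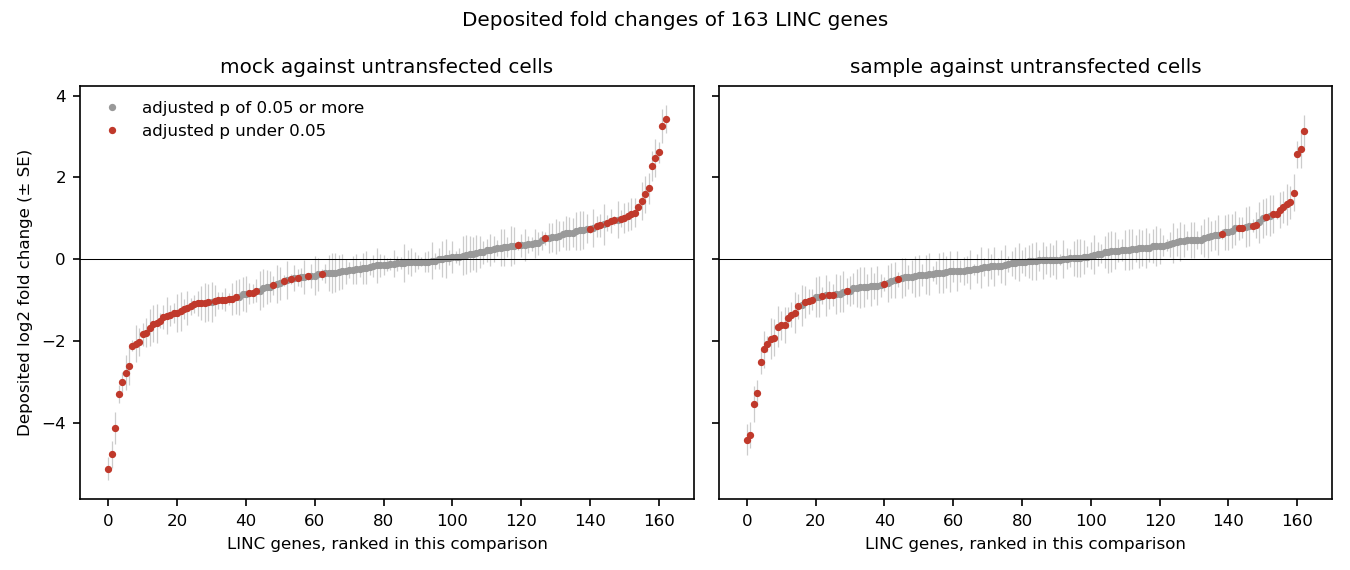
Deposited log2 fold changes (points, with SE bars) of the 163 LINC genes, ranked separately for mock against untransfected cells (left) and sample against untransfected cells (right), with genes of adjusted p under 0.05 in red. The lower tail reaches -5.13 (LINC02159) on the left and -4.42 (LINC00639) on the right, the upper tail 3.43 and 3.13 (LINC02535), and most genes lie within 1 of 0.

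Mock against untransfected cells is the comparison whose mean signal chose the members. At an adjusted p under 0.05 there were 22 members higher (13.5%) and 46 lower (28.2%) in the authors' deposited table, against 27.5% and 23.4% of all genes, and 50.9% of all genes were called in either direction. With a log2 fold change of at least 1 the members numbered 12 higher (7.36%) and 33 lower (20.2%), against 5.73% and 9.98% of all genes. Limma-voom called 89 members, where 59.0% of all genes were called. The lowest deposited log2 fold changes were -5.13 for LINC02159, -4.78 for LINC00639, -4.13 for LINC02475 and -3.31 for LINC00511 in the authors' deposited table. The highest in the same table were 3.43 for LINC02535, 3.26 for LINC00707, 2.61 for LINC00941 and 2.47 for LINC02910. LINC00673 stood at -2.12, LINC00958 at 1.28, LINC00839 at 0.95 and LINC00205 at -0.07 in the authors' deposited table. The 2 libraries of each group did not overlap for 48 members (29.4%) that were higher in mock cells and 80 (49.1%) that were lower, against 42.9% and 40.1% of all genes with that level. For sample against untransfected cells the counts without overlap were 48 (29.4%) higher and 66 (40.5%) lower, against 38.1% and 37.1%. The untransfected libraries serve both comparisons, so similar values for a gene in them are not independent.

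Sample against mock cells sets the light-switched plasmids beside control plasmids, with transfection in both groups. No member was called among 159 that had an adjusted p in the authors' deposited table (DESeq2 test), and none had an unadjusted p under 0.05. Over all genes 10 of 15285 were called, or 0.0654%, and 1.94% had an unadjusted p under 0.05. Limma-voom on the recovered reads called no member and no gene, and 5 members had an unadjusted p under 0.05, against 4.32% of all genes. With sample library a left out, only the shallow library stood for sample cells, so nothing about members is read from that fit. The 5 members with an unadjusted p under 0.05, named after their values were seen, were LINC03014, LINC01515, LINC00702 and LINC01278, which were higher in sample cells, and LINC00944, which was lower. LINC03014 had the largest difference, 1.05 (95% interval 0.18 to 1.93) on the log2 scale, and its adjusted p was 0.960. The 2 libraries of each group did not overlap for 33 members (20.2%) higher and 24 (14.7%) lower in sample cells, against 15.0% and 19.4% of all genes.

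The intervals say how large a difference could have gone unseen. For 97 of 163 members the 95% interval of the limma-voom log2 difference lay within 1 of 0, and the median interval was 1.30 wide. LINC02535 differed by 0.06 (95% interval -0.32 to 0.44), LINC00941 by 0.08 (95% interval -0.25 to 0.41) and LINC00958 by -0.12 (95% interval -0.30 to 0.06) between sample and mock cells. For LINC00673 the difference was -0.01 (95% interval -0.37 to 0.36). These genes, which differed from untransfected cells by more than 1 on the log2 scale, had narrow intervals around 0 between the transfected groups. Low members were less well bounded, such as LINC02475 at -0.27 (95% interval -1.75 to 1.21) and LINC02091 at 0.00 (95% interval -1.70 to 1.71). LINC02159 stood at 0.70 (95% interval -0.30 to 1.71) and LINC01191 at -0.75 (95% interval -1.81 to 0.32), both including 0.

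**Figure D3:**
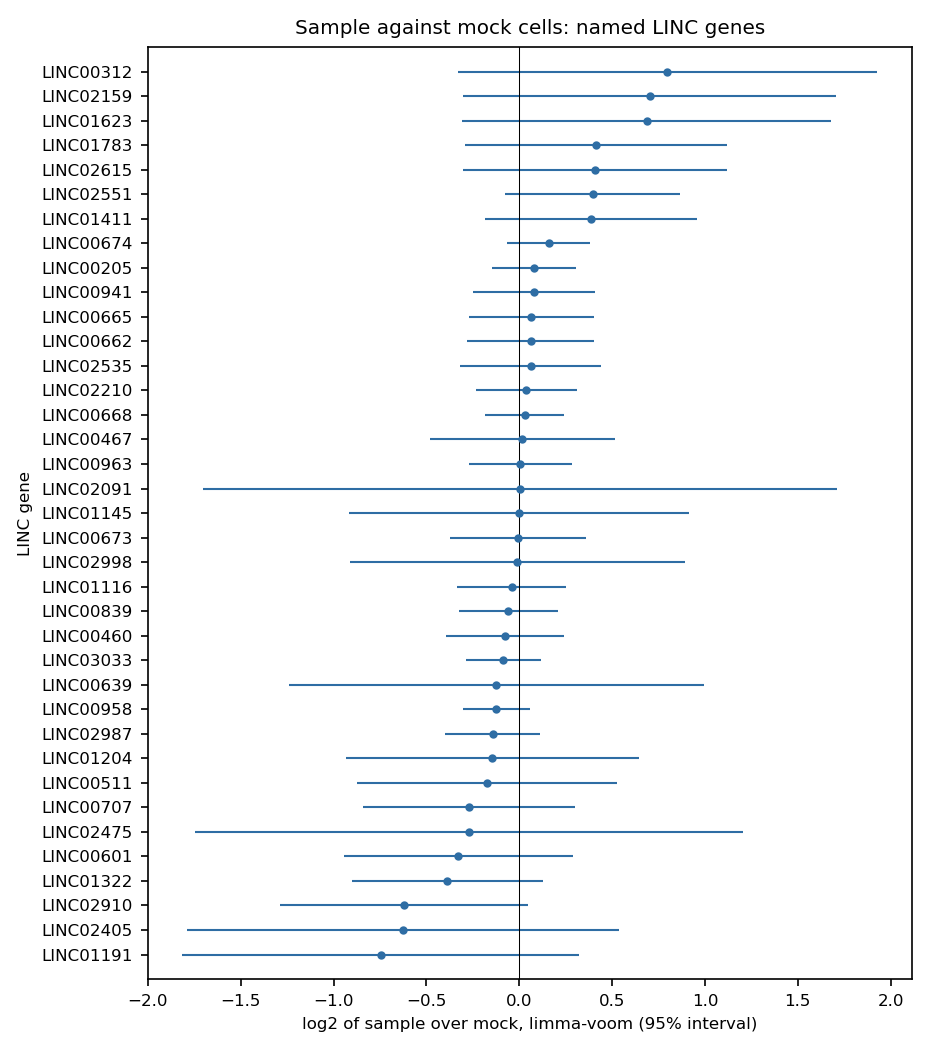
Limma-voom log2 differences between sample and mock cells (points) with 95% intervals (lines) for the 37 named LINC genes, sorted by the difference. Every interval includes 0, and intervals are narrow for abundant genes such as LINC00958 (-0.30 to 0.06) and wide for low ones such as LINC02475 (-1.75 to 1.21).

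Set beside other classes of genes with the same minimum level, LINC genes had lower signals and larger errors than coding genes. Their median mean signal was 66.2 and their median SE 0.35 in the authors' deposited table of mock against untransfected cells, against 987 and 0.12 for 12439 genes with a coding (NM_) entry. Antisense genes, 271 in number, were alike in level and error, at 66.9 and 0.35. For sample against untransfected cells 9.82% of LINC genes were called higher and 15.3% lower in the authors' deposited table. Of antisense genes 6.67% were called higher and 10.4% lower, of 1494 other noncoding genes 12.6% and 10.8%, and of coding genes 23.4% and 19.3%. In that comparison the median log2 fold change was -0.07 for LINC genes, -0.21 for antisense genes, -0.02 for other noncoding genes and 0.02 for coding genes. The classes differed in level and error, and the minimum was taken over mock and untransfected libraries, so that a low gene could enter through the untransfected ones. The part of both in these shares and any difference between classes were not tested.

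**Figure D4:**
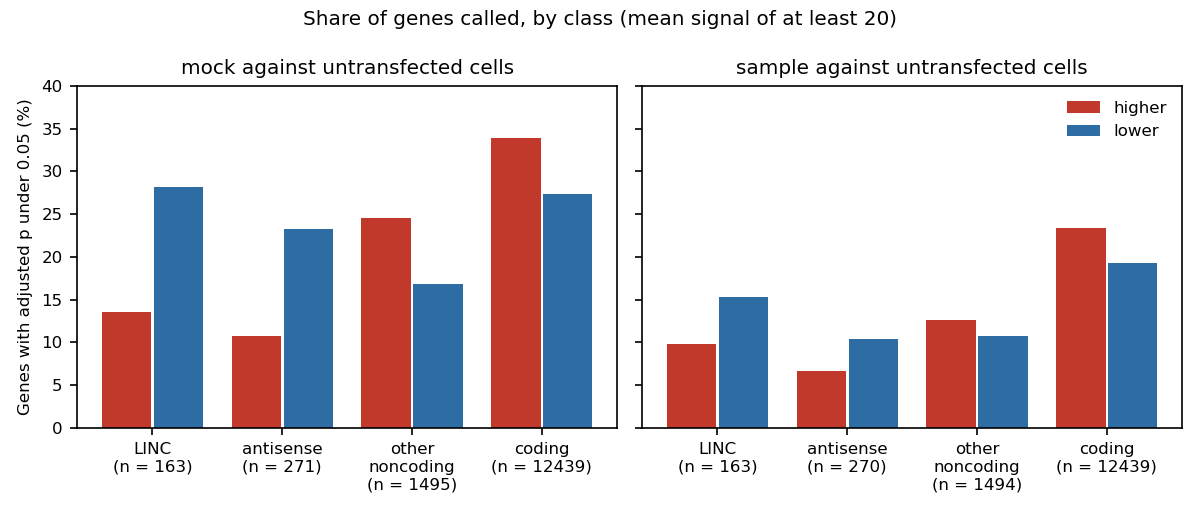
Share of genes (%) called higher (red) or lower (blue) at an adjusted p under 0.05 in the authors' deposited tables, by class, for mock against untransfected cells (left) and sample against untransfected cells (right). LINC genes (13.5% and 28.2% on the left, 9.82% and 15.3% on the right) and antisense genes have more falls than rises, whereas coding genes have more rises than falls, in genes that were all taken by a minimum over mock and untransfected libraries.

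Start-site sequences are shown for the 2 highest and the 2 lowest called members with an entry in the RefSeq promoter table (GRCh38.p14), since these genes moved the most in opposite directions. Each runs from 250 bases before the start site to 50 bases past it, 5′ to 3′ on the strand of the gene, and 116 of 163 members had an entry. The windows are chr6:85404753-85405052 (minus strand) for LINC02535, chr12:30795431-30795730 (plus strand) for LINC00941, chr5:160938577-160938876 (minus strand) for LINC02159 and chr4:44016611-44016910 (plus strand) for LINC02475. Capitals mark matches on either strand to any of 4 motifs. The first is the TATA box, searched as TATAAA. The next is the CCAAT box, searched by those letters. The third is the GC box, searched as GGGCGG. The last is the AP-1 site, searched as TGANTCA with any base at N.
LINC02535: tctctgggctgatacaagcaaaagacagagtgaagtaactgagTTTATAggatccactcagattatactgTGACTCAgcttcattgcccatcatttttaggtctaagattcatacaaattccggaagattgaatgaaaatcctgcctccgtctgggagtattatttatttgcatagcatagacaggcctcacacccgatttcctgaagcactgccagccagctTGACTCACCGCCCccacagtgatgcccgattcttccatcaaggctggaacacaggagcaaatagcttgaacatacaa
LINC00941: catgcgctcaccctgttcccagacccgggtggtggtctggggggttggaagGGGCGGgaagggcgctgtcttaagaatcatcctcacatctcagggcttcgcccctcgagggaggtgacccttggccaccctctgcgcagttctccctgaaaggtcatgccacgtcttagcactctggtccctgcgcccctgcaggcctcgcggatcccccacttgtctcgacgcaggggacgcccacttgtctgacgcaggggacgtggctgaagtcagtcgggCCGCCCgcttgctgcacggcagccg
LINC02159: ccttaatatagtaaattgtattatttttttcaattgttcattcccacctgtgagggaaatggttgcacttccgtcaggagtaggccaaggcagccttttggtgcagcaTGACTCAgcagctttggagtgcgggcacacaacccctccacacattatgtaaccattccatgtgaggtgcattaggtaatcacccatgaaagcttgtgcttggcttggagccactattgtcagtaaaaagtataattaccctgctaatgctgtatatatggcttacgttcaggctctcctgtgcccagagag
LINC02475: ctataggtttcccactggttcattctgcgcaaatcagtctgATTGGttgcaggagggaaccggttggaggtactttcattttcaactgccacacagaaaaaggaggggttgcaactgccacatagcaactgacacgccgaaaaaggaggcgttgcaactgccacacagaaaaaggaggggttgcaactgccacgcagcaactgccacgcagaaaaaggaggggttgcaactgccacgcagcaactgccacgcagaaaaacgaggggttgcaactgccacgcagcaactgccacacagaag

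The LINC02535 window holds AP-1 letters at 2 places, 180 and 27 bases before the start, and a GC box on the opposite strand abuts the nearer of them without overlap. It also holds TATA letters on the opposite strand 207 bases before the start. LINC00941, the most GC-rich of the 4 at 66.0% GC, has GC boxes on each strand and none of the other motifs. LINC02159, which fell, has AP-1 letters 142 bases before its start, so those letters occur in a window of a gene that rose and of a gene that fell. LINC02475 has only a CCAAT box, on the opposite strand. The AP-1 letters are in 13.8% of the 116 member promoters and in 7.76% of the 27305 promoters listed. TATA letters are in 15.5% of member and 12.0% of all promoters, the CCAAT box in 42.2% of member and 35.7% of all, and the GC box in 42.2% of member and 44.6% of all. A match is a description of the letters only. No GENCODE 29 transcript under the symbol LINC02535 matched its window by its first bases, so that window rests on RefSeq alone. The other 3 windows had such a match. A match could lie anywhere in the window, so it does not show that the start bases are the same.

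The nearest coding gene of each member was set beside it, since some LINC RNAs act on, or share control with, their neighbours. The gap to that gene had a median of 44.2 kb, 86 members lay within 50 kb, and 2 overlapped a coding gene. LINC00312 lies 3.66 kb from LMCD1, a LIM-domain co-regulator of transcription, on the same strand. LMCD1 had 453 and 412 in sample cells and 444 and 453 in mock cells, against 3507 and 3763 in untransfected cells, and for sample against untransfected cells LINC00312 stood at -1.92 and LMCD1 at -2.99 (SE 0.14, adjusted p = 8.09e-103) on the log2 scale in the authors' deposited table. Both genes fell, and the coding gene was the larger in read counts. LINC02091 lies 2.19 kb from DOC2B, a calcium sensor of vesicle release. DOC2B had 0.782 and 4.12 in sample cells and 0.0 and 1.85 in mock cells, against 50.7 and 55.6 in untransfected cells, and the authors' deposited table gave -1.95 for LINC02091 and -2.38 (SE 0.50, adjusted p = 1.21e-05) for DOC2B. LINC02159 lies 79.6 kb from ATP10B, a lipid flippase, and this pair beyond 50 kb is named after its values were seen. ATP10B had 2.35 and 0.0 in sample cells and 0.709 and 0.0 in mock cells, against 173 and 206 in untransfected cells, and the authors' deposited table gave -4.31 for LINC02159 and -4.29 (SE 0.43, adjusted p = 2.20e-21) for ATP10B.

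LINC00511 and LINC00941 had neighbours whose log2 fold changes were closer to 0 than their own. LINC00511 lies 5.47 kb from the zinc transporter gene SLC39A11, which is on the same strand and had 696 and 572 in sample cells and 628 and 676 in mock cells, against 944 and 1006 in untransfected cells. On the log2 scale LINC00511 stood at -3.28 and SLC39A11 at -0.58 (SE 0.17, adjusted p = 0.00209) in the authors' deposited table. LINC00941 lies 41.2 kb from CAPRIN2, which had 368 and 218 in sample cells and 362 and 271 in mock cells, against 363 and 284 in untransfected cells and -0.09 (SE 0.27, adjusted p = 0.833) in the authors' deposited table. LINC00958 lies 19.9 kb from RASSF10, which had at most 1.3 normalized counts in any library. LINC00665, not called in sample against untransfected cells, lies 2.73 kb from the zinc finger gene ZFP14, which fell with -1.02 (SE 0.23, adjusted p = 7.51e-05) in the authors' deposited table. LINC02535 lies 44.8 kb from NT5E, the ectonucleotidase CD73, and NT5E stood at 7.04 and 4.12 in sample cells, 6.38 and 8.35 in mock cells, and at 0 in both untransfected libraries. LINC00205 starts 157 bases from POFUT2 in a divergent pair, and neither passed the test, POFUT2 with 0.24 (SE 0.17, adjusted p = 0.269) in the authors' deposited table.

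Over all pairs within 50 kb of each other 79 had a value for both genes in sample against untransfected cells. Of 20 called members among them, 5 had a neighbour called in the same direction and 1 in the opposite direction. The other 14 had a neighbour not called in the authors' deposited table. Over all 79 pairs 25 neighbours were called. Beyond 50 kb, of 21 called members 6 had a neighbour called in the same direction, 6 in the opposite direction and 9 not called. There 25 neighbours were called over all 71 pairs. A neighbour without an adjusted p was counted as not called. Pearson's r of the log2 fold changes across pairs was 0.26 within 50 kb (79 pairs) and 0.28 beyond (71 pairs), and Spearman's rank correlation was 0.07 and 0.06. These are descriptions across genes that share the same 4 libraries. For mock against untransfected cells r was 0.37 and the rank correlation 0.20 over 81 pairs within 50 kb, and 0.27 and 0.06 over 72 pairs beyond.

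**Figure D5:**
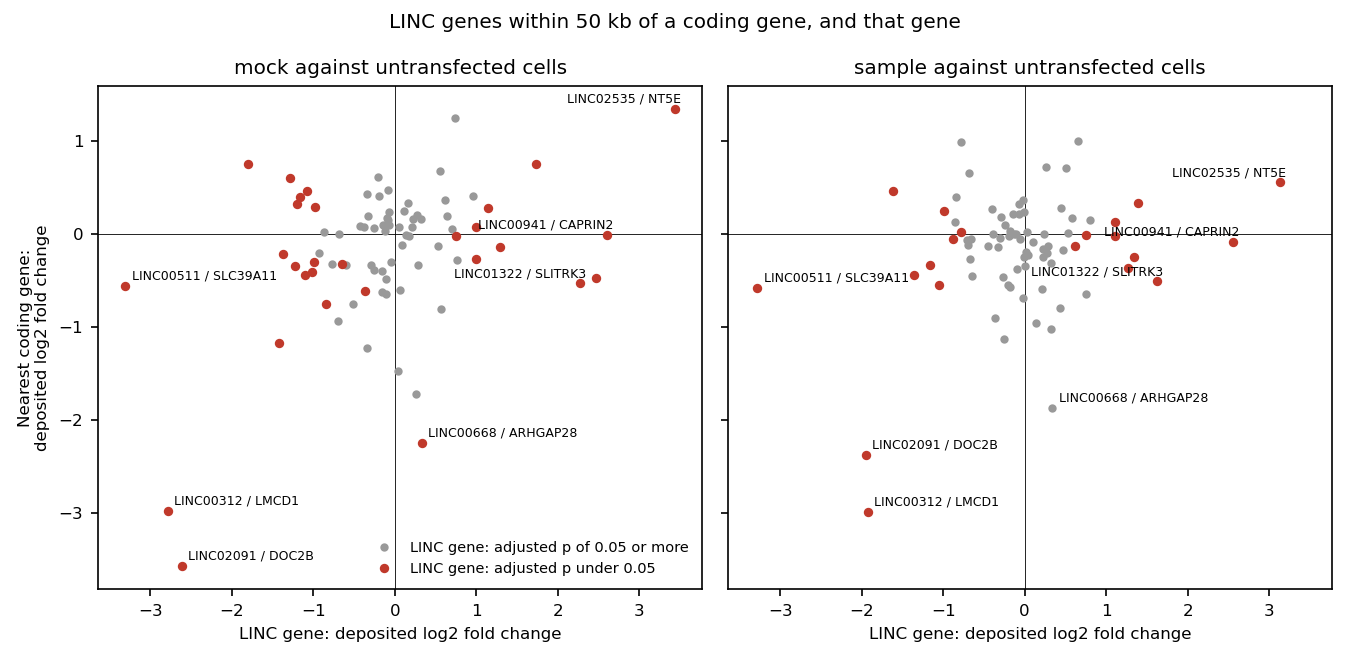
Deposited log2 fold change of the nearest coding gene (vertical) against that of the LINC gene (horizontal) for pairs within 50 kb, for mock against untransfected cells (left, 81 pairs) and sample against untransfected cells (right, 79 pairs), with called LINC genes in red. LINC00312 with LMCD1 and LINC02091 with DOC2B stand alone in the lower left, whereas most other called LINC genes have neighbours within 1 of 0.

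Some members lie close to each other, and 26 of them form 12 clusters with gaps under 500 kb. The largest cluster, on chromosome 17, holds LINC01152, LINC02003, LINC00673 and LINC00511 in that order. LINC02003 is 48.2 kb from LINC00673, and LINC00673 is 5.24 kb from LINC00511. In the authors' deposited table of sample against untransfected cells LINC01152 stood at -0.40 and LINC02003 at 0.09 on the log2 scale, neither called, whereas LINC00673 at -2.07 and LINC00511 at -3.28 were both called. LINC02003 averaged 104 in sample, 96.7 in mock and 97.3 in untransfected cells, and differed little between groups. On chromosome 20 LINC01270 fell by 1.44 (adjusted p = 1.09e-07) and the overlapping LINC01271 had -0.46 (adjusted p = 0.493) in the authors' deposited table. On chromosome 14 LINC03033 rose and the overlapping LINC01303 had 0.28 (adjusted p = 0.577) in the authors' deposited table. In all 24 members overlap the entry of another gene, LINC00639, LINC00662, LINC02987, LINC03033, LINC01191 and LINC02210 among the named ones, and whether reads were counted by strand was not given, so reads in the shared parts are of uncertain origin. LINC01623 has 8 rows of its accession in the tables, and its level is uncertain for that reason.

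Genes of the machinery that trims and degrades noncoding RNAs were counted as a list, the nuclear RNA exosome with its NEXT and PAXT adaptors. Of 22 tested for sample against untransfected cells 11 rose and none fell in the authors' deposited table, where 20.2% of all genes rose, with a median log2 fold change of 0.31 against -0.00 over all genes tested. EXOSC5, a core subunit, had 1195 and 1054 in sample cells and 1085 and 1207 in mock cells, against 553 and 555 in untransfected cells, with 1.01 (SE 0.15, adjusted p = 8.90e-10) in the authors' deposited table. EXOSC4, another core subunit, had 1845 and 1803 in sample cells and 1873 and 2193 in mock cells, against 999 and 994 in untransfected cells, with 0.86 (SE 0.13, adjusted p = 1.57e-10) in the authors' deposited table. ZC3H18, which links cap-bound RNA to these adaptors, had 1481 and 2092 in sample cells and 1627 and 1646 in mock cells, against 1008 and 988 in untransfected cells, with 0.80 (SE 0.17, adjusted p = 2.39e-05) in the authors' deposited table. Against mock cells none of the 22 was called in the authors' deposited table, and for mock against untransfected cells 16 were higher and 0 lower, where 27.5% and 23.4% of all genes were. Of 15 subunits of Integrator, the complex that ends transcription of many noncoding RNAs, 4 rose and 1 fell for sample against untransfected cells in the authors' deposited table, where 20.2% and 17.1% of all genes did, with a median of 0.20. INTS13 had 2237 and 2449.9 in sample cells and 2207 and 2473 in mock cells, against 1330.0 and 1371 in untransfected cells, with 0.78 (SE 0.12, adjusted p = 3.29e-09) in the authors' deposited table. INTS15 rose with 0.67 (SE 0.14, adjusted p = 1.15e-05), INTS5 with 0.56 (SE 0.17, adjusted p = 0.00324), and INTS8 fell with -0.45 (SE 0.15, adjusted p = 0.00959), all in the authors' deposited table. None of the 15 was called for sample against mock cells, and for mock against untransfected cells 7 were higher and 1 lower, where 27.5% and 23.4% of all genes were. These genes share all libraries with the LINC genes, and a link between them was not tested.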

How the data were processed

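The 6 libraries were grouped by the transfection in the labels, 2 a group. RNA was taken with a column kit and made into directional libraries, per the labels' protocols. The submitters' processing notes name STAR, Bowtie and DESeq2 with the build hg38. Their versions, their roles and the counting step were not given in the sources used here. Deposited by the authors were 3 tables, each comparing 2 groups over 4 libraries. Per the file headers the 40029 entries of a table carry a mean signal (normalized reads averaged over its libraries), a log2 fold change with its standard error, a Wald score, a p-value and an adjusted p-value, all by the authors. Their values show shrinkage of these deposited log2 fold changes toward 0.

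Accessions of 39720 entries (99.2%) were matched to symbols through a RefSeq gene table and GENCODE 29. A deposited mean signal sums whole counts over size factors, so reads of the 6 libraries could be solved from the 3 tables, uniquely for all 30527 entries with reads, to a relative tolerance of 1e-14. In 3 simulated sets of counts all 89663 entries with reads were recovered exactly. The deeper library of a group is called a and the shallower b, since replicate numbers are not known. Normalized counts divide reads by median-of-ratios size factors over the 6 libraries, a scale that differs from that of each deposited table. The authors' own test, at an adjusted p under 0.05, was the main one because the tables hold no raw counts. Limma-voom (limma 3.58.1, R 4.3.3) on the recovered reads, for genes averaging at least 10 normalized counts and with Benjamini-Hochberg adjustment, was the alternative. It was tested on simulated data with 100 of 14891 genes doubled and 100 halved, drawn from all genes averaging at least 20. The simulated spread between libraries was the same for every gene and group, a dispersion of 0.01. Members are lower in level and more variable between paired libraries than most genes, so the shares that follow need not hold for members. For sample against untransfected cells 97% of doubled and 84% of halved genes were called and 10.8% of calls were false, for sample against mock cells 95%, 83% and 8.72%, and for mock against untransfected cells 100%, 86% and 4.62%. Other alternatives changed the threshold, the minimum level, the entry per gene, the library sizes and the libraries kept, and the replicate block was not run. The members and lists were chosen with earlier results of these data known.

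Named members were the 10 largest in mean signal, up to 8 highest and 8 lowest called in each comparison, 3 on each side of the minimum and a set of 15 names, and for lists up to 3 called genes. Neighbours were named within 50 kb. Promoter sequences are from RefSeq (GRCh38.p14). Transcript lengths were left out for 9 members whose paired transcript was longer than the deposited entry. Intervals cover the spread of 2 libraries a group. Scripts ran in Python 3.11.15 with pandas 2.3.3, numpy 2.4.6, matplotlib 3.10.9 and scipy 1.17.1.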

Additional observations from a re-analysis of the deposited data

How the results depend on the processing

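For mock against untransfected cells 68 members were called by the authors' deposited DESeq2 test, 45 with a log2 fold change of at least 1 added (12 higher, 33 lower), 89 by limma-voom (34 higher, 55 lower) and 83 by limma-voom with total counts as library sizes (22 higher, 61 lower). Of all 14891 genes in the fit, that scaling called 8355 for mock and 7027 for sample against untransfected cells. It moved the median log2 fold change of all genes to -0.13 for mock and -0.11 for sample against untransfected cells. For sample against untransfected cells the deposited 41 became 69 by limma-voom (26 higher, 43 lower) and 67 with total counts as library sizes, and all 41 were called by limma-voom in the same direction. Leaving out 1 library at a time gave 61 to 94 members for mock against untransfected cells, 47 to 71 for sample against untransfected cells and 0 to 0 for sample against mock cells. Without sample library a, limma-voom called 822 genes for sample against mock cells, 0 of them members, and without sample library b it called 4. Stricter p, higher or no minimum level and another entry per gene kept each count of members within 1.5 times. Settings for single named members were sorted by a rule. A called value counted as kept when its sign held and the call was not lost, whatever its size. A value not called counted as kept when it stayed within the SD between paired libraries. By that rule 718 settings kept the value, 122 moved it, 36 brought it past the threshold and 12 took it below. No called value changed sign, and changes of sign in values not called were not counted. The 12 concern LINC00601, LINC00668, LINC00963, LINC01116, LINC01783 and LINC02210, each with 1 library left out. Causes were not tested. No paired analysis was possible because the libraries recovered from the tables cannot be tied to the replicate numbers of the labels. There were 2 libraries a group, and 1 sample library was shallow. Members below a mean signal of 50 had a median SE of 0.49 on the log2 scale for sample against untransfected cells. Moderate changes in such members could go uncalled, and no limit of detection was measured for them. Where a library is left out, the lone library of its group is assumed to vary like the other groups.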

Other observations

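Long noncoding RNAs with names of their own, a list of 47 genes outside the LINC series, were counted as a neighbouring group. Of 33 tested for sample against untransfected cells 8 rose and 5 fell in the authors' deposited table, where 37.3% of all genes were called, and the list's median log2 fold change was -0.06 against -0.00 over all genes tested. LINC-PINT, a transcript induced by p53 in other cells, had 113 and 115 in sample cells and 121 and 113 in mock cells, against 19.5 and 17.8 in untransfected cells, and the authors' deposited table gave a log2 fold change of 2.15 (SE 0.38, adjusted p = 1.76e-07). LUCAT1, a transcript of stressed and tumour cells, had 238 and 325 in sample cells and 293 and 257 in mock cells, against 65.0 and 56.3 in untransfected cells, with 1.99 (SE 0.29, adjusted p = 8.29e-11) in the authors' deposited table. HOTAIR, transcribed from the HOXC cluster, had 17.2 and 12.4 in sample cells and 15.6 and 21.3 in mock cells, against 91.6 and 108 in untransfected cells, with -2.03 (SE 0.42, adjusted p = 9.92e-06) in the authors' deposited table. For all 3 the transfected libraries stood apart from the untransfected ones. WAKMAR2 had 46.9 and 24.7 in sample cells and 54.6 and 60.3 in mock cells, against 5.2 and 6.41 in untransfected cells, with 1.58 (SE 0.49, adjusted p = 0.00552) in the authors' deposited table. MIR210HG, the host of a microRNA induced by low oxygen, had 3.91 and 0.0 in sample cells and 1.42 and 0.0 in mock cells, against 22.7 and 19.2 in untransfected cells, and did not pass for sample against untransfected cells (adjusted p = 0.0592 in the authors' deposited table). For mock against untransfected cells 11 of 38 were higher and 8 lower, where 50.9% of all genes were called, and for sample against mock cells none of 32 was called in the authors' deposited tables.

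Of the 15 LINC genes looked up by name, a set made with earlier results of these data known, 10 were members, and LINC00973 was matched to no entry. LINC00473 and LINC00520 missed the minimum, with mean signals of 14.5 and 15.0 in the authors' deposited table of mock against untransfected cells, and LINC01133 and LINC01614 stood at 2.48 and 2.6.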
